A study of Homo sapiens with 5 samples.

Results

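SF3A and SF3B are the protein complexes that join the U2 small nuclear ribonucleoprotein (U2 snRNP) during splicing, and the mRNAs that encode 9 of their subunits were followed here: SF3A1, SF3A2, SF3A3, SF3B1, SF3B2, SF3B3, SF3B4, SF3B5 and SF3B6. They are 9 of the 56632 genes in the tables, and all 9 were among the 11764 genes analysed, for which FPKM averaged 1 or more across the 5 libraries. FPKM counts fragments for each kilobase of a transcript's effective length, relative to all fragments of a library, so it allows levels of different genes to be set side by side. No member needed an immunoprecipitation to pass this filter, since the lowest member level in either input was 43.1 FPKM. The group is defined by complex membership, but it was chosen from the measured enrichments of these same libraries, in which SF3A2 stood near the top of all genes. Every enrichment of a member is therefore given as a description, with no test.

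The U2 snRNP finds the branch site of an intron, the adenosine that attacks the upstream splice site in the opening step of splicing. SF3A and SF3B dock on the U2 snRNP and hold its RNA paired to the intron at that site. SF3B1 is their best known subunit, since it is recurrently mutated in myeloid neoplasms and some solid tumours and is the target of several small-molecule splicing inhibitors. The subunits act together as proteins, but each is translated from the mRNA of a separate gene.

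RNA immunoprecipitation followed by sequencing (RIPseq) recovers a protein with an antibody and sequences the RNA that comes along, and an input library holds the RNA of such cells without the antibody step. All 5 libraries came from untreated MCF10A, an immortalised line of human breast epithelial cells, below 20 passages per the labels. The cells expressing FLAG-tagged CBFB gave 1 input and 1 RIP with a FLAG antibody, and the parental cells, for which the labels give no tagged protein, gave 1 input and 2 RIP repeats with an hnRNPK antibody. CBFB is the subunit of core binding factor that does not contact DNA, and hnRNPK is an RNA-binding protein whose KH domains favour C-rich single strands. Which end of CBFB carried the tag, whether the tagged cells kept their own CBFB gene, and whether they were 1 clone are not given for these libraries in the sources used here. Nothing in the labels says whether the repeats came from separate cultures, so the SD between them may be technical, and no mock immunoprecipitation was analysed here.

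The libraries held 69786576 to 106855647 expected counts. Counts from mitochondrial genes made up 4.27% and 11.2% of the input libraries, 62.2% of the FLAG-CBFB RIP, and 84.5% and 86.6% of the hnRNPK RIPs, and most nuclear mRNAs had a lower FPKM after immunoprecipitation than before. Averaged over the 11764 genes, log2(FPKM + 1) fell by 1.34 from input to RIP for FLAG-CBFB and by 2.61 and 2.68 for hnRNPK. Enrichment below is log2(FPKM + 1) in the RIP minus that in the input of the same cells, centred on this mean, and an mRNA above 2, which is 4-fold more than the average gene, is called enriched. The hnRNPK repeats differed by more than counting noise (chi-square of 71.3 per degree of freedom) and were kept as 2 libraries. All 9 basal epithelial markers were at 1.81 FPKM or more in both inputs, and of 5 markers of blood, endothelial, fibroblast and liver cells only COL1A1 reached 1 FPKM, at no more than 1.77.

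Because hnRNPK favours runs of cytosine, the most C-rich 30 nucleotides of each coding sequence are printed here, with runs of 3 or more C in capitals. They were read 5′ to 3′ from GENCODE 29 reference transcripts, 1 per gene, with U written as T, and SF3A2, SF3B4 and SF3A1 come first because they were the members whose FPKM was higher in every RIP than in its input.
SF3A2: gCCCCCgggaccaCCCCagctaCCCCCgcc
SF3B4: CCCtccaCCCagaCCCactCCCCggccacc
SF3A1: CCCCCgccgccgCCCgtgCCCacggagCCC
SF3A3: gCCCatcttgacctctctgcattctcctcc
SF3B1: tcctacacctagccacacaccagcgggagc
SF3B2: CCCCCCtctgcagcctcctccgccaCCCCC
SF3B3: cttaccaatctcgcttccatctcaCCCCac
SF3B5: tacatcggcacgggccacgccgacaccacc
SF3B6: cggccaagagggcgaacattcgacttccac
In SF3A2 the window lies at chr19:2247970-2247999 (GRCh38, plus strand), in SF3B4 at chr1:149923585-149923614 (minus strand) and in SF3A1 at chr22:30356736-30356765 (minus strand), each inside 1 coding exon. The SF3A2 window held 19 C, the SF3B4 window 20 and the SF3A1 window 19. The C-richest window of the set, with 21 C, belonged to SF3B2, an mRNA that was not enriched. SF3A3, SF3B1, SF3B3, SF3B5 and SF3B6 had between 10 and 15 C in their windows.

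Over longer stretches SF3A2, SF3A1 and SF3B4 held the most cytosine of the 9. Their C-richest 240 coding nucleotides, counted in frame, are shown for that reason. The SF3A2 stretch lies at chr19:2247935-2248174 (GRCh38, plus strand, coding positions 784 to 1023). That of SF3A1 spans 2 exons between positions 30337706 and 30338836 of chromosome 22 (minus strand, coding positions 1696 to 1935), and that of SF3B4 spans 2 exons between positions 149923584 and 149923934 of chromosome 1 (minus strand, coding positions 994 to 1233).
SF3A2: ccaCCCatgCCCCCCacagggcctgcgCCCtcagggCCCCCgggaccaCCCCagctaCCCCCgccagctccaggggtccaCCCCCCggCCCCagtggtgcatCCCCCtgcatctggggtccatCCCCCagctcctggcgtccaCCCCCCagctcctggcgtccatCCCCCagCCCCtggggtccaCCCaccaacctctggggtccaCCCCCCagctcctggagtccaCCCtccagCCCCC
SF3A1: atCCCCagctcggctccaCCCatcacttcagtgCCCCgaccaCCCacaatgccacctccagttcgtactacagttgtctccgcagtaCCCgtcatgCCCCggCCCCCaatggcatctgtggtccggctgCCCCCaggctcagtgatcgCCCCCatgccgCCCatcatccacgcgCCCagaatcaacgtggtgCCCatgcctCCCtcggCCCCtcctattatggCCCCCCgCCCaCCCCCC
SF3B4: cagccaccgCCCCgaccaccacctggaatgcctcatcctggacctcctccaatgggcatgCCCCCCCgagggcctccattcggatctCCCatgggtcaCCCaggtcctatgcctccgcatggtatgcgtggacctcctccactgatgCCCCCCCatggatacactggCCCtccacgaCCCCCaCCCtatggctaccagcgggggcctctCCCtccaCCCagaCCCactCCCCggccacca
The SF3A2 stretch held 128 C, or 53.3% of its bases, and 17 runs of 3 or more C. Runs of 5 or 6 C recur in it at short intervals. The SF3A1 stretch held 114 C (47.5%) and 17 runs, and the SF3B4 stretch 112 C (46.7%) and 12 runs. The C-richest stretch of SF3B2, not enriched, held 101 C (42.1%) and 9 runs, and those of the other 5 held between 44 C (SF3B6) and 80 C (SF3B5).

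SF3A2 encodes a zinc finger subunit of the SF3A trimer. The gene (ENSG00000104897) lies at chr19:2236504-2248679 on the plus strand of GRCh38. Its mRNA was at 43.1 FPKM in the FLAG-CBFB cell input and at 1452 FPKM in the FLAG-CBFB RIP, on 6484 and 184501 expected counts. In parental cells it was at 46.2 FPKM in the input and at 482 and 440.3 FPKM in the hnRNPK RIPs, on 4929, 61791 and 51795 counts. Both inputs were low and close to each other, and every RIP lay far above them. The FPKM ratio of RIP to input was 33.7 for FLAG-CBFB and 10.4 and 9.54 for the hnRNPK repeats. After centring, SF3A2 had a log2 enrichment of 6.38 for CBFB, with a 95% counting interval of ± 0.036 and no replicate, and of 5.94 ± 0.04 (SD, n = 2) for hnRNPK. It ranked 5th of the 11764 genes for CBFB and 18th for hnRNPK. Its pseudogene SF3A2P1 was listed at 0 counts in every library.

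SF3B4 encodes an SF3B subunit with RNA recognition motifs that contacts the intron upstream of the branch site, and its gene (ENSG00000143368) lies at chr1:149923317-149928344 on the minus strand. The mRNA was at 44.8 FPKM in the FLAG-CBFB cell input and 646 in the RIP. In parental cells it was at 57.6 FPKM in the input and at 276 and 324 in the hnRNPK RIPs. It followed SF3A2, with every RIP well above both inputs, at a lower level than SF3A2 in each RIP. Its log2 enrichment was 5.16 for CBFB and 5.00 ± 0.21 (SD, n = 2) for hnRNPK, ranking 31st and 56th. SF3A2 exceeded it by 1.22 for CBFB and by 0.94 ± 0.26 (SD, n = 2) for hnRNPK. A processed copy of this gene, SF3B4P1, held at most 15.0 expected counts in any library, against 97634 for SF3B4 in the FLAG-CBFB RIP.

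SF3A1 encodes the largest SF3A subunit, which carries SURP domains and a ubiquitin-like domain that contacts U1 snRNA. Its gene (ENSG00000099995) lies at chr22:30331988-30356947 on the minus strand. Its mRNA was at 45.7 FPKM in the FLAG-CBFB cell input and 72.8 in the RIP, and at 49.0 FPKM in the input of parental cells and 76.2 and 72.4 in the hnRNPK RIPs. The FPKM gain was small but went the same way in all 3 RIPs, with ratios of 1.59, 1.56 and 1.48. Against the average gene, which lost FPKM, this came to a log2 enrichment of 1.999 for CBFB and 3.23 for hnRNPK, where the repeats, at 3.24 and 3.23, nearly coincided. SF3A1 therefore sat just below the 4-fold limit for CBFB, at rank 515 where 514 genes were above it, and its counting interval of ± 0.030 spans the limit. The SF3A1 call rests on the scaling: without centring its hnRNPK enrichment was 0.59, and with FPKM brought to an equal arithmetic mean in all libraries it was -0.24 for either protein, while SF3A2 stayed above 2 for both (4.14 and 2.45) and SF3B4 did so for CBFB (2.92) but not for hnRNPK (1.52). SF3A2 exceeded SF3A1 by 4.38 for CBFB and by 2.70 ± 0.04 (SD, n = 2) for hnRNPK.

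The other 6 mRNAs all had a lower FPKM in every RIP than in its input. SF3A3, the subunit that completes the SF3A trimer, was at 83.5 FPKM in the FLAG-CBFB cell input and 24.7 in the RIP, and at 71.9 in the input of parental cells and 4.22 and 3.43 in the hnRNPK RIPs. SF3B1 was at 132 and 34.7 FPKM in FLAG-CBFB cells, and at 146 in the input of parental cells and 3.63 and 4.55 in the hnRNPK RIPs. These are the mRNAs of the remaining SF3A subunit and of the scaffold of SF3B, and both sat near or below the average gene. SF3B2, whose protein pairs with SF3B4, was at 98.2 and 25.2 FPKM in FLAG-CBFB cells, and at 139 in the input of parental cells and 4.13 and 4.84 in the hnRNPK RIPs. The mRNAs of these interacting proteins thus lay on opposite sides of their inputs in all 3 RIPs.

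SF3B3, SF3B5 and SF3B6 moved like SF3B1. SF3B3, a beta-propeller scaffold of SF3B, was at 76.7 and 23.8 FPKM in FLAG-CBFB cells, and at 114 in the input of parental cells and 3.18 and 7.69 in the hnRNPK RIPs. The small subunit SF3B5 was at 111 and 36.2 FPKM, and at 134, 2.88 and 3.08 in the same order. SF3B6, which contacts the branch site adenosine region and is also called p14, was at 215 and 71.9 FPKM, and at 198, 10.04 and 7.43. For these 6 mRNAs the input exceeded the FLAG-CBFB RIP by between 2.99-fold (SF3B6) and 3.91-fold (SF3B2) in FPKM. It exceeded an hnRNPK RIP by between 14.8-fold (SF3B3, repeat 2) and 46.4-fold (SF3B5, repeat 1).

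The genes of these 6 mRNAs lie apart from each other on GRCh38. SF3A3 (ENSG00000183431) is at chr1:37956975-37990921 on the minus strand, SF3B1 (ENSG00000115524) at chr2:197389784-197435091 on the minus strand, and SF3B2 (ENSG00000087365) at chr11:66050729-66069308 on the plus strand. SF3B3 (ENSG00000189091) is at chr16:70523788-70577670 on the plus strand, SF3B5 (ENSG00000169976) at chr6:144094881-144095573 on the minus strand, and SF3B6 (ENSG00000115128) at chr2:24067584-24076443 on the minus strand. Their values in the RIPs rested on 1882 (SF3B5) to 7500 (SF3B1) expected counts for FLAG-CBFB and on 158 (SF3B5, repeat 2) to 1237 (SF3B3, repeat 2) for hnRNPK. The hnRNPK values of SF3B5, SF3B6 and SF3A3, the members under 650 counts in both RIPs, were the least deeply covered of the group.

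After centring, the 6 mRNAs spanned -0.58 (SF3B2) to -0.23 (SF3B6) for CBFB, a narrow band near the median of all genes, -0.19. With the expected counts scaled by edgeR's TMM or DESeq2's size factors instead, SF3B5 and SF3B6 came out slightly above 0 for CBFB, at 0.09 to 0.21, and SF3A3 with DESeq2 only, at 0.05. For hnRNPK they spanned -2.44 ± 0.10 (SD, n = 2) for SF3B5 to -1.28 ± 0.12 for SF3A3, below the median of all genes, -0.11. SF3B1 was at -2.22 ± 0.23, SF3B2 at -2.04 ± 0.18 and SF3B6 at -1.72 ± 0.23 for hnRNPK. Apart from SF3B2 and SF3B6, neighbours in the order of these 6 differed by less than the larger of their SDs. SF3B3, at -1.61 ± 0.80, had the widest spread, with -2.17 and -1.04 in the repeats. Its expected counts in the repeats were close, 1143 and 1237, but its effective transcript length in the tables was 3484 nt in repeat 1 and 1777 nt in repeat 2, and FPKM divides by that length.

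**Figure D1:**
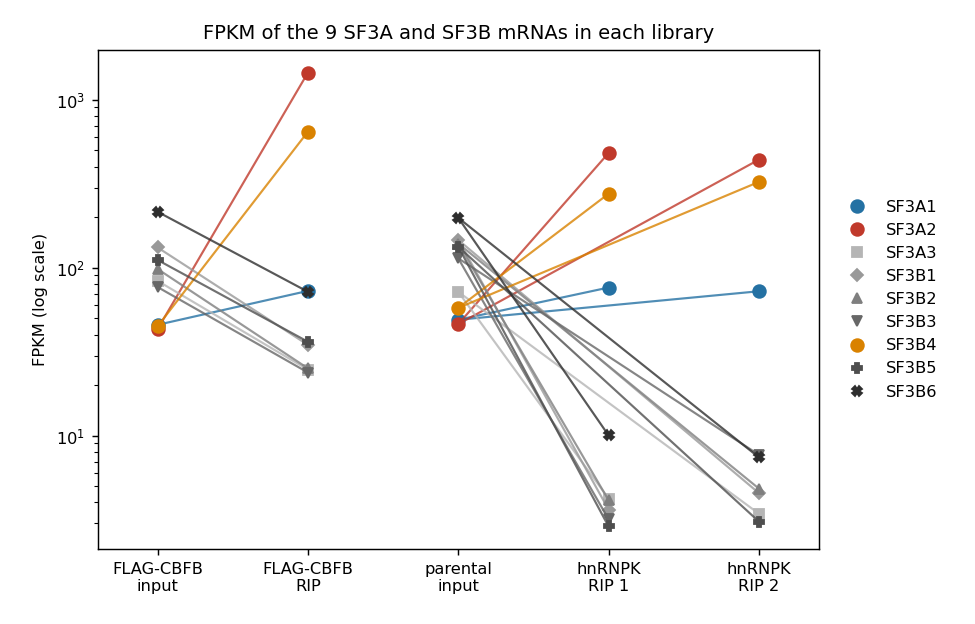
FPKM on a log scale (vertical) of the 9 SF3A and SF3B mRNAs in each of the 5 libraries (horizontal), 1 point per mRNA and library, with lines joining an input to the RIPs from the same cells. SF3A2, SF3B4 and SF3A1 were higher in every RIP than in its input, SF3A2 at 1452 against 43.1 FPKM in FLAG-CBFB cells, while the other 6 were lower in every RIP.

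Called by the 4-fold limit, 2 of the 9 members (SF3A2 and SF3B4) were enriched for CBFB, where 4.37% of the 11764 genes were. For hnRNPK, 3 of 9 (SF3A2, SF3B4 and SF3A1) were enriched, against 8.2% of all genes. Below -2 there was no member for CBFB, where 0.0935% of all genes lay, and there were 3 for hnRNPK (SF3B1, SF3B2 and SF3B5), where 6.24% of all genes lay. None of those 3 stayed below -2 with a pseudocount of 0.1 or with DESeq2 size factors. Nothing is read from these shares, since the same contrasts chose the group. On the CBFB side the member just inside the limit was SF3B4 at 5.16 and the member just outside was SF3A1 at 1.999, while for hnRNPK they were SF3A1 at 3.23 and SF3A3 at -1.28. The median of the 9 was -0.25 for CBFB and -1.61 for hnRNPK, so the typical member was not enriched.

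Set against its partners, SF3A2 exceeded the median of the other 8 members by 6.66 on the log2 scale for CBFB and by 7.60 for hnRNPK. In the hnRNPK repeats taken singly the difference was 7.83 and 7.53. Against SF3A3, which belongs to the same trimer of proteins, SF3A2 was higher by 6.76 for CBFB and by 7.21 ± 0.08 (SD, n = 2) for hnRNPK. These differences do not depend on the centring, which shifts all members alike.

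**Figure D2:**
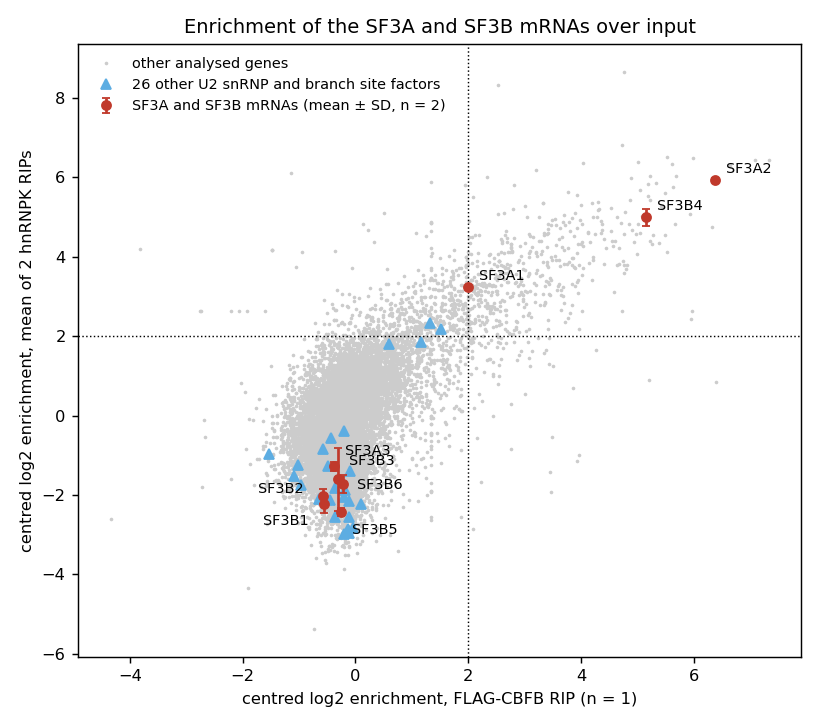
Centred log2 enrichment for CBFB (horizontal, n = 1) against that for hnRNPK (vertical, mean of 2 repeats), with the 9 SF3A and SF3B mRNAs in red (bars, SD), the other U2 snRNP and branch site factors as blue triangles, all other analysed genes in grey, and dotted lines at the 4-fold limit. SF3A2 (6.38 and 5.94) and SF3B4 (5.16 and 5.00) sit at the upper right, SF3A1 on the CBFB limit, and the other 6 with the U2 factors at the lower left.

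The inputs differed little. The centred log2 difference of the FLAG-CBFB cell input from the parental input lay between -0.53 (SF3B3) and 0.24 (SF3A3) over the 9 members, and it was -0.06 for SF3A2. No member passed 2 in either direction, against 1.33% of all genes. Each input is a single bulk library, so fewer cells holding an mRNA and less of it per cell cannot be told apart.

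The composition of the group shows how far the RIPs departed from the inputs. In the inputs SF3B6 was the most abundant of the 9, and SF3A2 made up 5.07% and 4.83% of their summed FPKM, less than any other member. In the RIPs SF3A2 made up 60.8% of the sum for FLAG-CBFB and 55.9% and 50.7% for the hnRNPK repeats. SF3B4 went from 5.27% and 6.03% in the inputs to 27.1%, 32.0% and 37.4% in the RIPs. The least abundant mRNA of the group in both inputs thus became the most abundant in all 3 RIPs.

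SF3A2, SF3B4 and SF3A1 together held 15.7% and 15.98% of the sum in the inputs, and 90.9%, 96.7% and 96.4% in the RIPs. The summed FPKM of the 9 was 851 and 956 in the inputs, 2388 for FLAG-CBFB and 862 and 868 for hnRNPK. The sum of the other 6 was 717 before and 216 after immunoprecipitation in FLAG-CBFB cells, and 803 before and 28.1 and 31.0 after it in parental cells. Within SF3A, the FPKM ratio of SF3A2 to SF3A1 was 0.944 and 0.942 in the inputs but 19.9 for FLAG-CBFB and 6.33 and 6.08 for hnRNPK. These ratios within a library need no centring and no scaling between libraries.

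**Figure D3:**
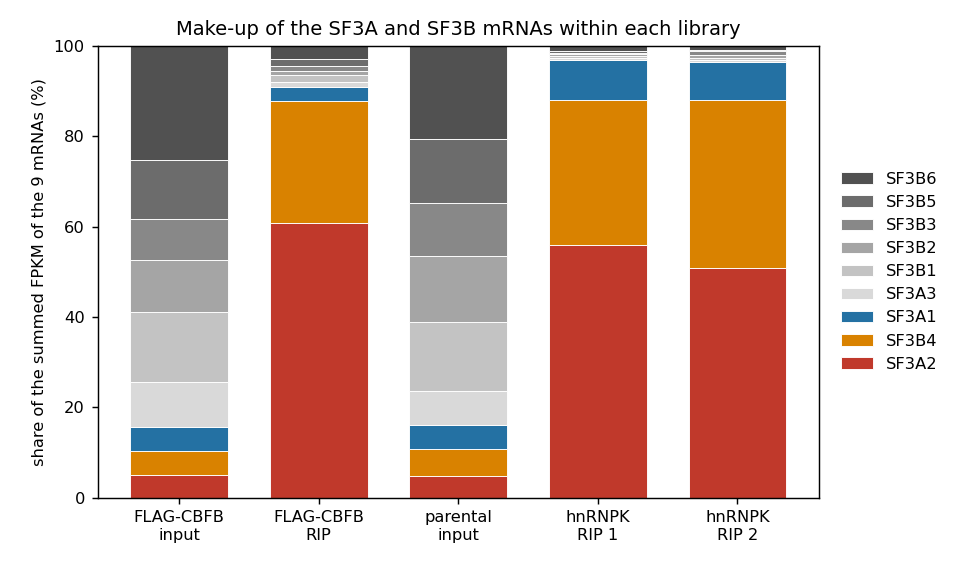
Share of the summed FPKM of the 9 SF3A and SF3B mRNAs (vertical, %) held by each mRNA in each of the 5 libraries (bars). SF3A2 (red) holds 5.07% and 4.83% in the inputs and 50.7% to 60.8% in the RIPs, and SF3A2, SF3B4 and SF3A1 (blue) together hold 90.9% to 96.7% in the RIPs, leaving the rest to the 6 mRNAs in grey.

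The proteins that work with SF3A and SF3B give the wider setting. A list of 26 other U2 snRNP and branch site factors, all of them analysed, held no mRNA above 2 for CBFB (background 4.37%) and 2 for hnRNPK (background 8.2%). Below -2 the list held 0 for CBFB (background 0.0935%) and 11 for hnRNPK (background 6.24%), and its median was -0.20 for CBFB and -1.79 for hnRNPK. The 6 members with lower FPKM in the RIPs had medians of -0.34 and -1.88. The list's enrichments ran from -1.53 (RBM5, a splicing regulator) to 1.52 (CHERP) for CBFB, and from -2.99 ± 0.37 (SD, n = 2) for SNRPD2, an Sm core protein, to 2.34 ± 0.03 for SMNDC1 for hnRNPK.

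PHF5A, the remaining core protein of SF3B, was at 40.6 and 14.3 FPKM in FLAG-CBFB cells, and at 58.9 in the input of parental cells and 2.25 and 3.08 in the hnRNPK RIPs. With an enrichment of -0.10 for CBFB and -1.40 ± 0.28 (SD, n = 2) for hnRNPK, it lay with the 6 members that were lower in the RIPs. CHERP, a protein associated with the U2 snRNP, was at 17.2 and 19.7 FPKM in FLAG-CBFB cells, and at 17.4 in the input of parental cells and 13.5 and 11.1 in the hnRNPK RIPs. SMNDC1, a Tudor domain splicing factor, was at 34.1 and 33.8 FPKM, and at 29.3, 24.5 and 22.7 in the same order. Both passed 2 for hnRNPK, CHERP at 2.17 ± 0.13, although their FPKM in those RIPs was below the input, because the average gene was lower still. Neither came near SF3A2 in any RIP.

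Reference mRNAs place these values. RUNX1, which encodes the DNA-binding partner of CBFB, was enriched at 2.13 for CBFB and 3.09 ± 0.28 (SD, n = 2) for hnRNPK. SF3A2 exceeded it in both. GAPDH, a glycolytic enzyme, was at -0.18 and -2.69 ± 0.04, and HNRNPK itself at -0.59 and -2.59 ± 0.22. The 6 members with lower FPKM in the RIPs lay slightly below GAPDH for CBFB and above it for hnRNPK.

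The length of the SF3A2 mRNA forms varied little beside its FPKM. Its mean transcript length, weighted by abundance as the tables give it, was 1578 nt in the FLAG-CBFB cell input and 1564 nt in the RIP. In parental cells it was 1692 nt in the input and 1412 and 1470 nt in the hnRNPK RIPs. For SF3A1 it was 3154 and 3643 nt in FLAG-CBFB cells, and 3042, 2919 and 3133 nt in parental cells. SF3B5 was given 737 nt in every library, so mean transcript length did not enter its lower FPKM in the RIPs.

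Features of the transcripts were not used to choose the group. They were taken from 1 reference transcript per gene and ranked over the 10492 analysed genes with a coding sequence. The coding sequence of SF3A2 was 40.9% cytosine, at percentile 99.8, and that of SF3B4 was 34.3%, at percentile 94.2. SF3B5 came next with 31.8% (percentile 85.2) and SF3A1 with 30.2% (percentile 77.1), and the other 5 lay between 17.5% (SF3B6) and 26.1% (SF3B2), where the median gene had 25.1%. SF3A2 and SF3B4 were thus the most C-rich coding sequences of the group, but SF3B5, which was lower in every RIP, was richer than SF3A1.

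Outside the coding sequence SF3A2 was C-rich as well. Its 3′ untranslated region of 133 nt was 39.8% cytosine (percentile 99.1), and its 5′ untranslated region was 33.8% (percentile 62.5). The 3′ untranslated region of SF3B4 was 24.9% cytosine (percentile 68.9) and that of SF3A1 22.4% (percentile 57.7), so a C-rich 3′ end was not shared by the members with higher FPKM in the RIPs. Across the 9, the highest value after SF3A2 was that of SF3B5, 27.2%. Runs of 3 or more C in this region came to 52.6 per kilobase for SF3A2, 17.8 for SF3B4 and 15.7 for SF3A1. SF3B2, not enriched, had 36.1 per kilobase there.

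Runs of 3 or more C in the coding sequence separated the group somewhat more. SF3A2 had 63 runs in 1395 coding nucleotides, or 45.2 per kilobase, SF3B4 had 30.6 per kilobase and SF3A1 29.4. The other 6 lay between 0 (SF3B6) and 19.3 (SF3B2) per kilobase, and SF3B5 had a single run. The longest run of SF3A2 was 6 C, at percentile 56.8, as in SF3A1 and SF3B2. The richest 30-nt window of SF3A2, with 19 C, lay at percentile 84.5, below the 95.8 of SF3B2. In 60-nt windows lying wholly in the coding sequence, at least 40% of bases were C in 57.1% of SF3A2 windows, 37.3% of SF3B4 windows and 23.0% of SF3A1 windows. The next was SF3B2 with 10.7%, and SF3A3, SF3B1 and SF3B6 had no such window.

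Within SF3A2 and SF3B4 the cytosine was concentrated toward the 3′ end of the coding sequence. The median window of SF3A2 was 31.7% C upstream of the midpoint of the coding sequence and 50.0% downstream of it. For SF3B4 the values were 23.3% and 43.3%, and for SF3A1 26.7% and 31.7%. SF3B2 went the other way, with 26.7% and 23.3%, and its C-richest 60-nt window lay close to the start. The C-richest 30 nt of SF3A1 also lay near the start, at coding positions 28 to 57.

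**Figure D4:**
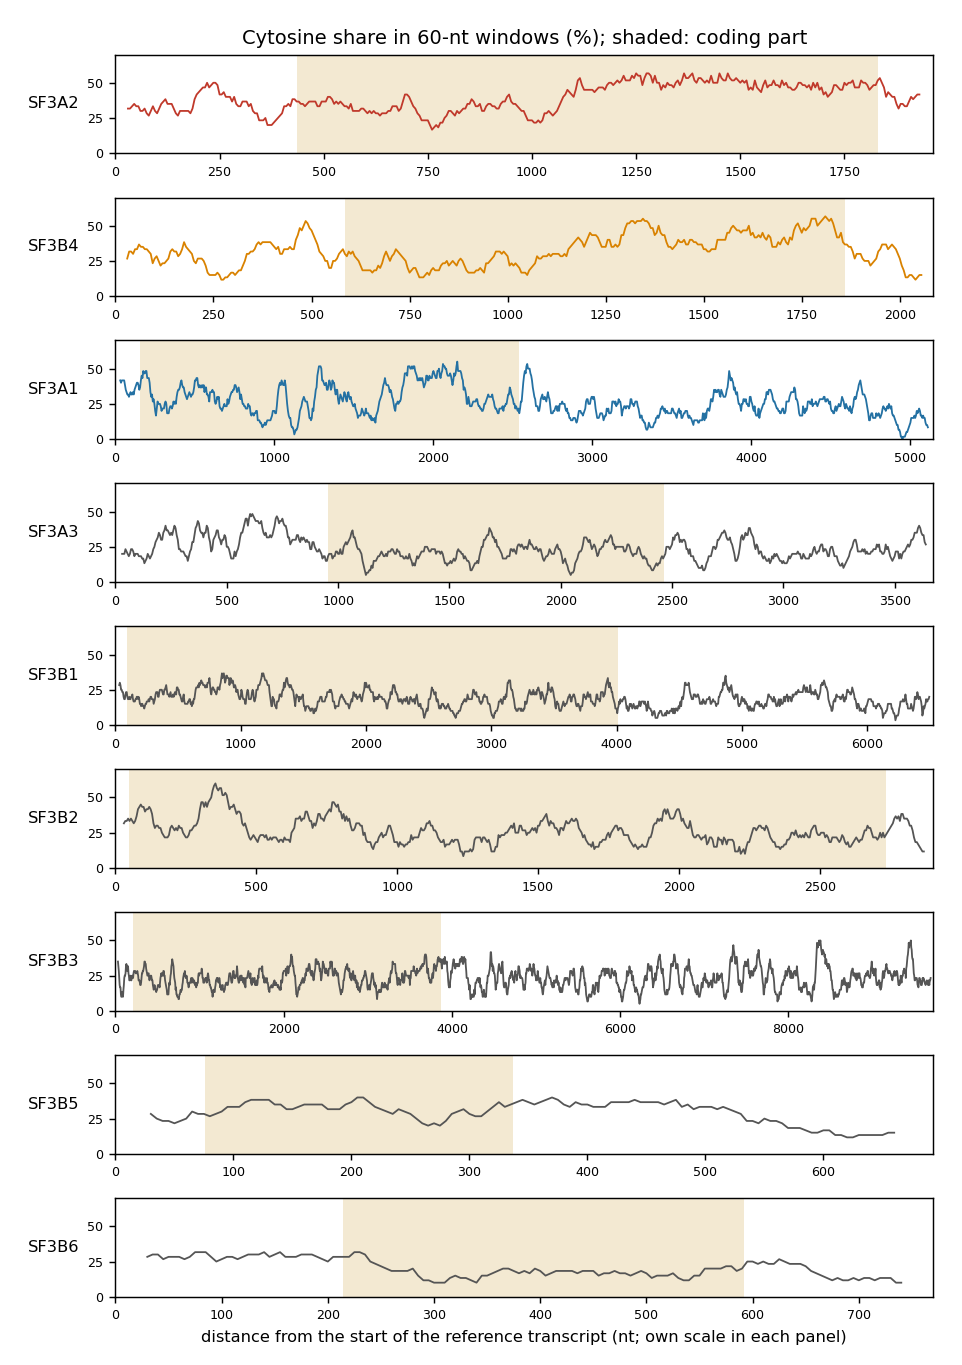
Share of cytosine in sliding 60-nt windows (vertical, %) along the reference transcript of each of the 9 mRNAs (horizontal, distance from the transcript start in nt, each panel on its own scale), with the coding part shaded. SF3A2 and SF3B4 are C-rich over most of the coding sequence downstream of its midpoint, where the median window is 50.0% and 43.3% C. SF3A1 has a C-rich stretch within that part, with windows of up to 55% C, and SF3B2 an early peak of 60%.

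Codons for proline all begin with CC, and their share was computed after the sequences had been seen. In the 80 codons of the printed stretches, SF3A2 had 36 proline codons, SF3B4 had 38 and SF3A1 had 28, and the C-richest 80 codons of SF3B2 had 29. Proline codons made up 25.2% of the coding sequence of SF3A2 and 22.6% of that of SF3B4, both at percentile 99.9. SF3A1 followed with 14.8% (percentile 98.7) and SF3B2 with 12.2% (percentile 96.1), and the other 5 lay between 3.19% (SF3A3) and 6.52% (SF3B1) around a median gene of 5.46%. The 3 members with higher FPKM in the RIPs were the 3 with the most proline codons, in the same order as their enrichment. SF3B2 was next in proline codons and had the lowest CBFB enrichment of the 9.

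Across the 10492 coding genes the relation was weak, with a Spearman correlation of proline codon share with enrichment of 0.13 for CBFB and 0.24 for hnRNPK. For the cytosine share of the coding sequence it was 0.20 and 0.24. For the most C in any 30 coding nucleotides it was 0.05 and 0.28, and for the longest C run of the transcript 0.015 and 0.27. Of the features computed, transcript length had the largest values, at -0.31 for CBFB and 0.30 for hnRNPK. Genes share libraries and base composition and are not independent, so no p is attached. The share of enriched genes changed mainly at the upper end. Of the 2080 genes with the fewest proline codons, 1.68% were enriched for CBFB and 3.56% for hnRNPK, where 3.51% and 6.996% of all coding genes were. Of the 140 genes with at least as many proline codons as SF3A1, 41.4% and 52.1% were enriched, and of the 409 with at least as many as SF3B2, 29.1% and 37.7%.

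Of the 7 genes with a proline share at or above that of SF3A2, itself included, 6 were enriched for CBFB and 7 for hnRNPK. The others were SPRR2D, SPRR1A and SPRR1B, which encode cornified envelope proteins of keratinocytes, with MAPK1IP1L, MMP24OS and WIPF2, all named after their values were seen. SPRR2D passed the limit for hnRNPK at 2.42, below the 2.64 that a gene with 0 counts in every library would score. No gain in FPKM for hnRNPK is therefore read from SPRR2D. Of the 12 genes with a proline share at or above that of SF3B4, itself included, 7 were enriched for CBFB and 8 for hnRNPK. The genes between SF3A2 and SF3B4 in proline share were not enriched for either protein. The first of these was SNRPC, a U1 snRNP protein also named after its values were seen. It had 25.2% proline codons and enrichments of -0.01 for CBFB and -2.72 for hnRNPK. SNRPB of the U2 list, named likewise, was similar, with 17.3% proline codons and enrichments of -0.12 and -2.96. In that list SF1, the branch point binding protein and also named after its values were seen, had 19.1% proline codons and enrichments of 1.17 and 1.85, and CHERP had 14.1%, but SMNDC1, the list's highest for hnRNPK, had 3.36%. A high proline codon share therefore went with enrichment often but not in every mRNA.

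**Figure D5:**
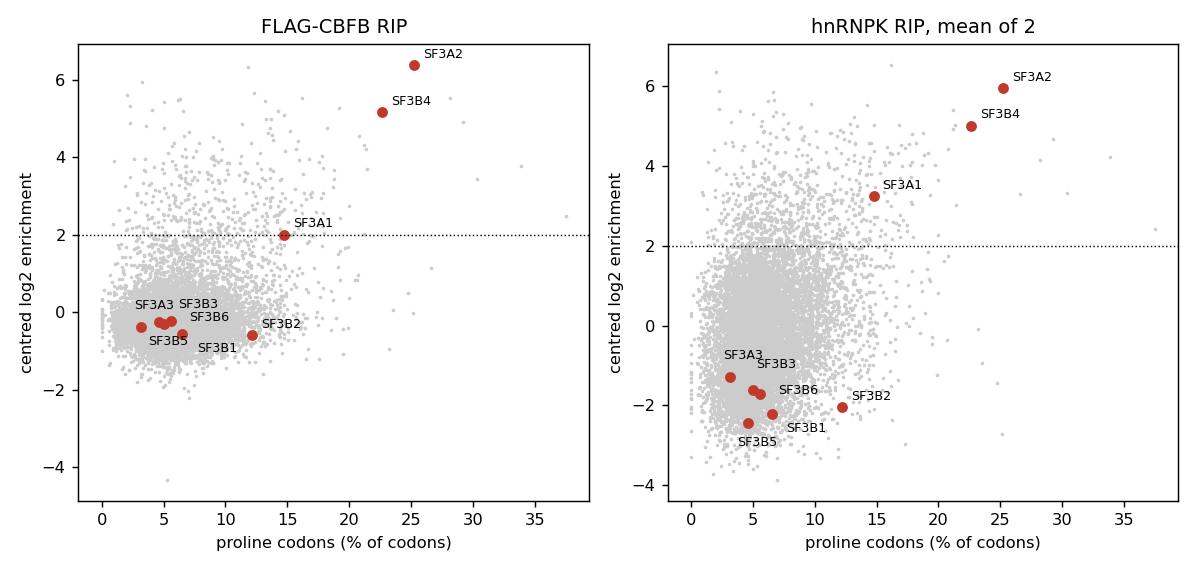
Proline codons as a percentage of all codons (horizontal) against centred log2 enrichment (vertical) for FLAG-CBFB (left) and hnRNPK (right), with the 9 SF3A and SF3B mRNAs in red, the other analysed coding genes in grey and a dotted line at the 4-fold limit. SF3A2 and SF3B4, at 25.2% and 22.6%, sit at the upper right of both panels, and SF3B2, at 12.2%, sits below 0 in both.

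The genes on either side of SF3A2 stayed at low FPKM in the RIPs. PLEKHJ1, on the opposite strand, overlaps the start of SF3A2 by 1201 nt, of which 398 nt are exonic in both, and the library kit as named in the labels does not keep strand. It was at 35.6 and 11.4 FPKM in FLAG-CBFB cells, and at 50.4 in the input of parental cells and 2 and 2.66 in the hnRNPK RIPs, lower in each RIP where SF3A2 was higher, with enrichments of -0.23 for CBFB and -1.31 ± 0.25 (SD, n = 2) for hnRNPK. AMH, which encodes anti-Mullerian hormone, starts 630 nt beyond the end of SF3A2 on the same strand and stayed between 1.32 and 2.24 FPKM in all 5 libraries. It was at 1.46 FPKM in the FLAG-CBFB cell input and 2.24 in the RIP, and at 2.22 in the input of parental cells and 1.32 and 1.69 in the hnRNPK RIPs. Its centred enrichments were 1.74 for CBFB and 2.28 ± 0.20 (SD, n = 2) for hnRNPK. These lie near the floor, since SF3A2P1, with 0 counts in every library, would score 1.34 and 2.64. The FPKM ratio of RIP to input for AMH was 1.53 for FLAG-CBFB and 0.595 and 0.761 for the hnRNPK repeats, so no gain for hnRNPK is read from it. SF3A1 shares 218 exonic nt with CCDC157 on the opposite strand, and reads from that stretch cannot be told apart.

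The mRNAs whose pattern was most like that of SF3A2 were mitochondrial. Likeness was the Euclidean distance over the 3 centred enrichments, among 7613 analysed genes with at least 100 expected counts in every library. The nearest were MT-CYB at a distance of 0.63, MT-ND2 at 0.73, MT-ND4 at 0.79, MT-ND1 at 0.89 and MT-ND4L at 0.97, which encode subunits of the respiratory chain. MT-CYB, for instance, had enrichments of 6.65 for CBFB and 6.20 and 6.43 for the hnRNPK repeats. SF3B4 was 21st in this order, at 1.82. With FPKM rescaled to the counts outside the mitochondrial genes, SF3A2 was at 6.62 for CBFB and 6.80 for hnRNPK. Centring takes out any constant factor of a library, so this rescaling acts only through the pseudocount. It cannot show whether the mitochondrial share affects the SF3A2 value.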

How the data were processed

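RIPseq and input libraries of MCF10A cells were assigned to groups by their titles. The labels give Trizol extraction, an RNeasy cleanup and a TruSeq mRNA kit, and the authors' processing notes name Trimmomatic, STAR, RSEM and hg19, without versions. In the deposited tables, expected counts are fractional estimated counts of fragments per gene from RSEM. The deposited FPKM values divide these by effective transcript length and library total. The authors' tables also give mean and effective transcript lengths, which were used as deposited.

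Of 56632 Ensembl identifiers, 50276 were matched to a symbol. Coordinates, transcripts and sequences are those of GENCODE 29 on GRCh38, since the tables hold no coordinates and this is a later build than hg19. The pseudocount was 1 FPKM, and genes needed a mean of 1 FPKM over the 5 libraries. FLAG-CBFB had 1 library per arm and hnRNPK 2 RIPs against 1 input, so every value of a member is a description. Counting intervals cover counting error only. Because log2(FPKM + 1) is used, the change of weakly expressed genes from input to RIP is understated before centring. Since the average gene fell, centring then places such genes high. SF3A2P1, at 0 counts in every library and not analysed, would score 1.34 for CBFB and 2.64 for hnRNPK. Genes near the filter of 1 FPKM can thus pass the limit for hnRNPK without a gain in FPKM, and the share of all genes called enriched includes any such genes. The library totals of 69786576 to 106855647 expected counts left each member with at least 158 counts in every library.

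Named genes were the 9 members, PHF5A, the genes of the U2 list above 2 or at either end of its range, the nearest genes of SF3A2, HNRNPK, CBFB, RUNX1 and GAPDH, and the 5 genes most like SF3A2. Outside this rule, SNRPB, SF1, SNRPC, SPRR2D, SPRR1A, SPRR1B, MAPK1IP1L, MMP24OS and WIPF2 were named after their values were seen, CCDC157 for its overlap with SF3A1, SF3A2P1 and SF3B4P1 as copies of members, and COL1A1 as a marker. The members, the lists and the tests were chosen with earlier results of these data known. The alternatives were other pseudocounts, filters, centrings and scalings, the other input, a 2-fold limit, each hnRNPK repeat alone, and rounded expected counts with edgeR 4.0.16 TMM factors or DESeq2 1.42.0 size factors. The calculation was tested on simulated data in which enrichment was planted only in well expressed genes. That test therefore does not cover how weakly expressed genes are scored. Python 3.11.15, numpy 2.4.6, pandas 2.3.3, scipy 1.17.1, matplotlib 3.10.9 and R 4.3.3 were used.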

Additional observations from a re-analysis of the deposited data

Results flagged for a closer look

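CBFB mRNA itself had a centred log2 enrichment of 0.67 in the FLAG-CBFB RIP but of -0.96 and -1.10 in the hnRNPK RIPs, so the libraries of the 2 proteins lay on opposite sides of the average gene. The difference, 1.70, was not tested, since the FLAG-CBFB RIP had no repeat. Its FPKM was 53.9 in the FLAG-CBFB cell input and 33.5 in the RIP. In parental cells it was 32.2 in the input and 1.80 and 1.42 in the hnRNPK RIPs. CBFB mRNA was thus below its input in every RIP, and the opposite signs arise only against the average gene. Counts for this gene do not separate tagged from untagged CBFB.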

How the results depend on the processing

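Every alternative kept SF3A2 above the average gene and above the other members. Its CBFB enrichment, 6.38, became 6.63 with a pseudocount of 0.1, 5.36 centred on all genes and 6.46 centred on genes of at least 5 FPKM. It was 5.04 without centring, 4.14 with FPKM at an equal arithmetic mean and 6.62 with FPKM rescaled to the counts outside the mitochondrial genes. It was 6.32 against the other input, 6.76 with TMM and 6.84 with DESeq2 size factors. The mitochondrial rescaling removed no gene and, after centring, acts only through the pseudocount. Its hnRNPK enrichment, 5.94, became 6.76, 3.90, 6.39, 3.29, 2.45, 6.80, 6.0, 6.54 and 6.80 in the same order, and 5.91 or 5.97 on 1 repeat.

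The distance of SF3A2 from the median of the other 8 members moved least. For CBFB, 6.66, it became 6.72 with a pseudocount of 0.1, 6.62 against the other input and 6.73 with either TMM or DESeq2 size factors. For hnRNPK, 7.60, it was 7.53 to 7.83 without 1 repeat.

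The number of enriched members depended on SF3A1 and, under 1 scaling, SF3B4. For CBFB they were 3 in place of 2 with a pseudocount of 0.1, genes of at least 5 FPKM or the mitochondrial rescaling. The same held with TMM, DESeq2 size factors or a 2-fold limit. For hnRNPK they were 2 in place of 3 centred on all genes or not centred, and 1 (SF3A2) with FPKM at an equal arithmetic mean, where SF3B4 was at 1.52 and SF3A1 reversed to -0.24. Of 160 values of the other members under the alternatives, 153 kept their sign. The sign changed for SF3A1 under that scaling, where CBFB was also -0.24, and for the CBFB values of SF3B5 and SF3B6 with TMM (0.09 and 0.13) or DESeq2 size factors (0.18 and 0.21) and of SF3A3 with the latter (0.05). The calls below -2 for hnRNPK also depended on the processing. No member was below -2 with a pseudocount of 0.1, genes of at least 5 FPKM, the mitochondrial rescaling or DESeq2 size factors. With TMM only SF3B5 was, at -2.01. Centred on all genes, not centred or with FPKM at an equal arithmetic mean, every member with lower FPKM in the RIPs was below -2. In the last of these settings that held for CBFB too. No paired analysis was possible because only the hnRNPK RIP has numbered repeats. The single libraries, and not depth, limit the CBFB values, which have no replicate.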
